A study of Mus musculus with 2 samples.

Results

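The 10 cathepsin genes Ctsa, Ctsb, Ctsc, Ctsd, Ctse, Ctsh, Ctsl, Ctss, Ctsw and Ctsz, taken by symbol from a gene list of 31053 rows, were followed across the cell classes of the mouse liver. Liver tissue was digested with collagenase IV, and sorted single cells labelled immune cells were profiled with the 10x Genomics droplet system, which counts each captured transcript once by its unique molecular identifier (UMI). The labels name 1 sample of Rcrin KO mice, described in the series title as a conditional knockout, and 1 sample of WT mice, described there as carrying the floxed gene. Both came from 8-week-old mice of the strain label RedMUC298trTg. The Cre driver, the number of animals pooled and the sort gate are not given in the sources used here.

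The files of the Rcrin KO sample and of the WT sample were identical byte for byte, and all 11192 cell barcodes were shared by both. No knockout was therefore compared with its control, and every value describes this 1 matrix as 1 sample of unknown genotype. A single sample leaves no spread between replicates to test against, so no p-value is given. A level of Rcrin was not analysed here.

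Cathepsins are proteases of the endosome and lysosome that are made as inactive precursors and activated at acid pH. Most are cysteine proteases of the papain type (cathepsins B, C, H, L, S, W and Z), while D and E are aspartic proteases and A is a serine carboxypeptidase. In phagocytes they degrade ingested material, in antigen-presenting cells they trim the invariant chain and peptides for MHC class II, and cathepsin C activates the granule proteases of cytotoxic lymphocytes, neutrophils and mast cells. Kupffer cells, the macrophages fixed in the liver sinusoids, and liver sinusoidal endothelial cells (LSEC) together clear much of the blood-borne waste that reaches lysosomes in the liver.

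After filtering, 10366 barcodes with 64321006 UMI and a median of 4343.5 UMI remained. Of these, 9163 (88.39%) were placed in a lineage by counting detected markers of 18 lineages, with 139 markers in all and no cathepsin among them. The 12 lineages with at least 30 barcodes are called gates here and named for their markers. They are the B gate (3028 barcodes), T gate (1873), neutrophil gate (916), LSEC gate (905), NK/ILC1 gate (890) of natural killer cells and type 1 innate lymphoid cells, Kupffer gate (503), classical monocyte gate (334), nonclassical monocyte gate (269), plasmacytoid dendritic (pDC) gate (258), plasma cell gate (63), type 1 conventional dendritic (cDC1) gate (47) and basophil gate (37). The LSEC gate held 8.73% of the kept barcodes (exact Clopper-Pearson 95% interval 8.19 to 9.29%), so the suspension labelled immune cells also contained endothelial cells. Median depth differed between gates, with 18220 UMI in the cDC1 gate, 13127 in the Kupffer gate, 7257 in the LSEC gate, 4198.5 in the NK/ILC1 gate, 3261 in the B gate and 2571 in the neutrophil gate. Levels are counts per 1000000 UMI (CPM) summed over a gate, and the same gene is compared between gates. Intervals are exact Poisson 95% intervals for CPM and exact conditional ones for ratios of 2 counts. They cover counting error only, treat UMI as independent and leave out the variation between cells and between animals.

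Promoter windows of RefSeq (GRCm38.p6), from 250 bases before to 50 after a transcript start, covered 6 of the 10 members in 7 entries. They were searched on both strands for the core of the lysosomal gene element bound by TFEB and TFE3, CACGTG, and for GAGGAAGT, a form of the element bound by the myeloid factor PU.1. Windows with CACGTG belonged to Ctsa, Ctsd and Ctsl, and windows with GAGGAAGT belonged to Ctsc and Ctss. Of all 32851 promoter windows of the same length, 7.15% held CACGTG and 3.20% GAGGAAGT. The sequences are shown because the genes behind them peak in the Kupffer gate (Ctsa, Ctsc, Ctsd and Ctss) or the LSEC gate (Ctsl). Ctsz, highest in the Kupffer gate but not separated there from the pDC gate, had neither motif. A match describes these letters and not binding, and the motifs were chosen with earlier results of these data known. The GAGGAAGT match of Ctsc lay 151 bases before its start and that of Ctss 2 bases before, both on the other strand, so the capitals in these lines, which run 250 bases before to 20 after the start, read ACTTCCTC:
Ctsc, chr7:88277835-88278104, plus strand: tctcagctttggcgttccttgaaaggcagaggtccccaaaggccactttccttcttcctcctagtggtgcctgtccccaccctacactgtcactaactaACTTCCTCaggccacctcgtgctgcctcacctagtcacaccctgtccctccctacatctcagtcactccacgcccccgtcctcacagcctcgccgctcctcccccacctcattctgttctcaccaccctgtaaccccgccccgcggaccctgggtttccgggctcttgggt
Ctss, chr3:95526536-95526805, plus strand: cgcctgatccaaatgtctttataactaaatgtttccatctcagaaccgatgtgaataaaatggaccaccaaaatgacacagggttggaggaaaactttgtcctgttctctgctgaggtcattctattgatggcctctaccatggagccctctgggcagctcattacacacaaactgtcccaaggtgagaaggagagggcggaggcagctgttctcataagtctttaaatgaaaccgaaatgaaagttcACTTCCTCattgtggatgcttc
The CACGTG matches, in capitals within 30 bases, lay 245 and 98 bases before the RefSeq start of Ctsd and 236 bases before that of Ctsl. Ctsa had such a match 12 bases before and another 5 bases after the later of its pair of RefSeq starts; the last capital of its line begins that other match:
Ctsd, chr7:142388048-142388077, minus strand: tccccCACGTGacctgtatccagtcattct
Ctsd, chr7:142387908-142387937, minus strand: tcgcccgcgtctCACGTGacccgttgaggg
Ctsl, chr13:64370739-64370768, minus strand: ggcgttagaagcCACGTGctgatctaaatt
Ctsa, chr2:164833749-164833778, plus strand: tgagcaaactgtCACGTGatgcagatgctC
The RefSeq starts shown for Ctsd, Ctsl and Ctsa lie inside the longer gene spans of GENCODE M21, so transcripts starting further upstream are annotated for these genes.

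Cathepsin transcripts were far from evenly spread over the liver cell classes, and the Kupffer gate was the class where most of them were highest. The 10 members summed to 13401 CPM in the Kupffer gate (95% interval 13309 to 13493), 5371 in the pDC gate, 4547 in the nonclassical monocyte gate, 4444 in the classical monocyte gate and 3487 in the LSEC gate. They summed to 1399 CPM in the neutrophil gate, 1350 in the NK/ILC1 gate, 1136 in the B gate, 981 in the cDC1 gate, 941 in the basophil gate, 768 in the T gate and 758 in the plasma cell gate. Ctsa, Ctsb, Ctsc, Ctsd, Ctss and Ctsz, which is 6 of the 10, had their highest level in the Kupffer gate. For Ctsz the Kupffer gate (597 CPM) did not separate from the pDC gate (594 CPM). The share of all genes with their highest level in the Kupffer gate was not computed, so this count has no background beside it. Ctsl was highest in the LSEC gate, Ctsh in the pDC gate, Ctsw in the NK/ILC1 gate and Ctse in the basophil gate. Of 110 ratios between neighbours in these orders, 60 had an interval that excluded 1.

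**Figure D1:**
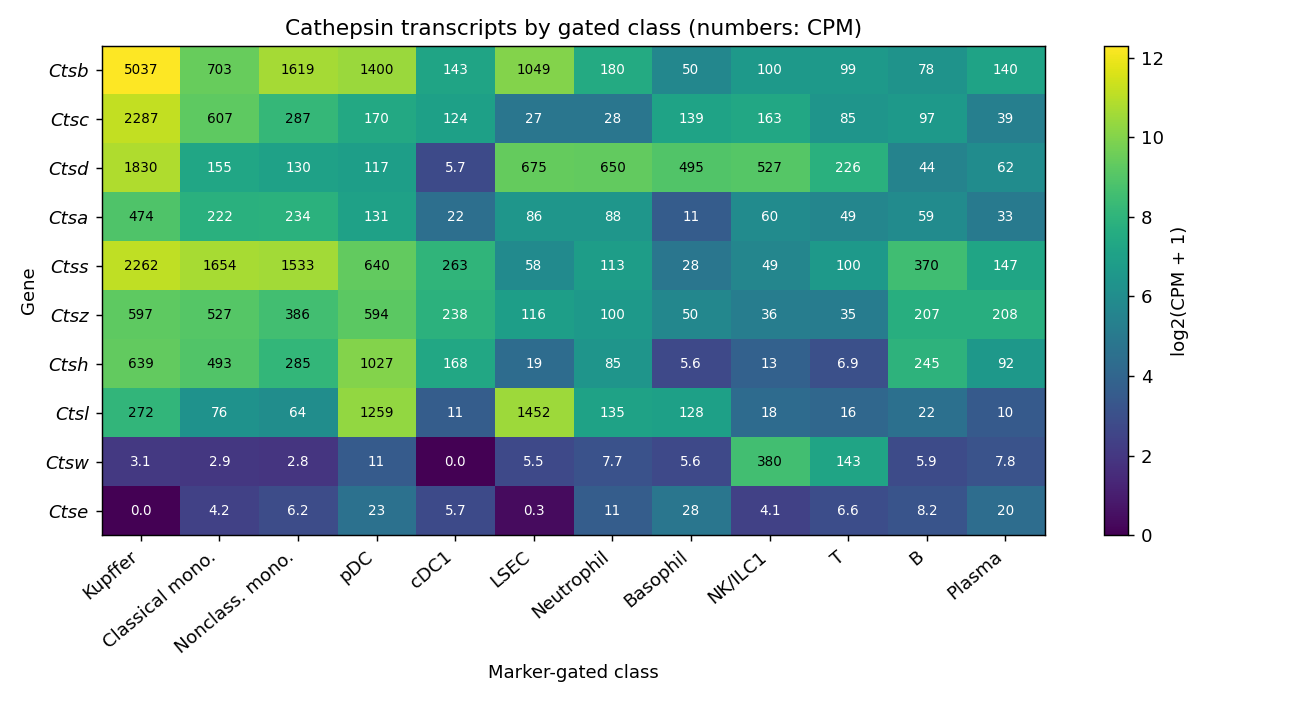
Levels of the 10 cathepsins (rows) in the 12 marker-defined gates (columns); numbers are CPM and colour is log2(CPM + 1). The Kupffer column holds the highest value of 6 genes, of which Ctsz is not separated from the pDC column. Ctsl peaks in the LSEC column, Ctsh in the pDC column and Ctsw in the NK/ILC1 column.

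Against all other gated barcodes, 7 of the 9 members tested were at least 2-fold higher in the Kupffer gate on the log2(CPM + 1) scale, where 13.6% of all 9042 genes tested passed the same fold. These were Ctsc (log2 fold 4.15), Ctsb (3.66), Ctss (2.74), Ctsd (2.69), Ctsa (2.53), Ctsh (1.92) and Ctsz (1.77). The lysosomal genes outside the family showed a like pattern. Of 23 such genes, 18 were at least 2-fold higher in the Kupffer gate, with a median log2 fold of 1.75, beside a median of 2.53 for the members tested and -0.24 for all genes tested. Ctsl stood apart with a log2 fold of -0.20, and Ctsw was lower in the Kupffer gate at -4.16. Ctse was under the 10 CPM minimum for this fold in the Kupffer gate and in the rest, and had no UMI in the Kupffer gate. For each other gate, the rest included the Kupffer gate. That gate held 30395 of 48485 gated Ctsb UMI, 13798 of 19611 for Ctsc and 11044 of 23921 for Ctsd. Its level thus weighs on the counts of higher and lower members in the other gates. Counts with the Kupffer gate left out of the rest were not computed. The count for the other gates was 4 of 10 in the pDC gate (Ctse, Ctsh, Ctsl and Ctsz; 9.82% of all genes), 3 of 9 in the classical monocyte gate (Ctsh, Ctss and Ctsz; 8.27%) and 1 of 9 in the nonclassical monocyte gate (Ctss; 8.57%). It was 1 of 9 in the LSEC gate (Ctsl; 24.1%), in the NK/ILC1 gate (Ctsw; 6.81%) and in the T gate (Ctsw; 6.27%), and 1 of 10 in the basophil gate (Ctse; 10.0%) and in the plasma cell gate (Ctse; 7.01%). No member passed it in the B gate (6.92%), the neutrophil gate (10.5%) or the cDC1 gate (8.71%). Members at least 2-fold lower than in the rest numbered 8 of 9 in the T gate (22.4% of all genes), 7 of 9 in the NK/ILC1 gate (17.5%), 7 of 9 in the cDC1 gate (27.8%), 6 of 9 in the B gate (24.4%) and 5 of 9 in the LSEC gate (17.6%). They numbered 8 of 10 in the plasma cell gate (48.5%) and in the basophil gate (49.0%) and 7 of 10 in the neutrophil gate (58.8%), beside a background that was also high there. In the classical monocyte gate (21.0%) and the nonclassical monocyte gate (23.0%) there were 3 of 9, in the pDC gate 3 of 10 (21.2%) and in the Kupffer gate 1 of 9 (22.5%). With barcodes thinned to 1000 UMI the count of higher members was 3 in the LSEC gate and 5 in the classical monocyte gate, and with at most 5% mitochondrial UMI it was 5 in the classical monocyte gate.

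Single barcodes showed the same concentration at equal depth. Each barcode was thinned to 1000 UMI, which left out 52 Kupffer barcodes and 7 neutrophil barcodes. A thinned Kupffer barcode then held UMI of a median of 5 different cathepsins, and 64.08% held 5 or more. The median was 4 in the pDC gate, 3 in both monocyte gates, 2 in the LSEC gate and 1 in every other gate. No thinned Kupffer barcode lacked all 10, against 33.12% of B barcodes and 46.93% of T barcodes.

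Ctsb (chr14:63122462-63145923, plus strand, GENCODE M21 on GRCm38), a cysteine protease with both endopeptidase and carboxypeptidase activity, was high in the Kupffer gate and lower, but still abundant, in the nonclassical monocyte, pDC and LSEC gates. Its level was 5037 CPM in the Kupffer gate (4980 to 5094), 1619 in the nonclassical monocyte gate, 1400 in the pDC gate, 1048 in the LSEC gate and 703 in the classical monocyte gate. The Kupffer gate was 3.11-fold above the nonclassical monocyte gate (2.98 to 3.25). All other gates lay between 50.1 CPM in the basophil gate and 180 in the neutrophil gate, so the 5 gates named before were all above the lymphocyte, granulocyte and cDC1 gates. Thinned to 1000 UMI, 98.0% of Kupffer barcodes held a Ctsb UMI, against 62.9% in the LSEC gate and 6.75% in the B gate; unthinned, the shares were 99.4, 97.3 and 21.0%. Within the Kupffer gate the level per barcode ran, as UMI per 10000, from 21.7 at the 5th percentile to a median of 49.1 and 84.0 at the 95th percentile. In the LSEC gate the 95th percentile was 19.2, below the 5th percentile of the Kupffer gate.

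Ctsc (chr7:88278085-88310888, plus strand), the dipeptidyl peptidase that activates granule serine proteases, was high in macrophages and monocytes and close to its lowest in endothelium. It reached 2287 CPM in the Kupffer gate (2248 to 2325), 607 in the classical monocyte gate and 287 in the nonclassical monocyte gate. The Kupffer gate was 3.77-fold above the classical monocyte gate (3.59 to 3.95). Lymphoid levels were 163 CPM in the NK/ILC1 gate, 97.4 in the B gate and 84.8 in the T gate. Among the 12 gates the lowest were the neutrophil gate with 27.9 CPM (22.0 to 34.9) and the LSEC gate with 27.0 (23.3 to 31.1), which did not separate. The Kupffer gate exceeded the LSEC gate, whose cells also face the sinusoid, 84.8-fold in Ctsc (73.5 to 98.3). Both statements moved when classes were taken from Leiden clusters in place of gates. The LSEC clusters then lay below the neutrophil clusters (LSEC over neutrophil 0.407, 0.299 to 0.556), and Kupffer exceeded LSEC 193-fold (156 to 242).

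Ctsd (chr7:142375911-142388038, minus strand), the main aspartic protease of lysosomes, was spread over granulocytes and cytotoxic lymphocytes as well as macrophages and endothelium. The Kupffer gate was highest with 1830 CPM (1796 to 1865), 2.71-fold above the LSEC gate with 675 (ratio interval 2.62 to 2.81). The LSEC gate and the neutrophil gate with 650 CPM did not separate (ratio 1.04, 0.983 to 1.10). They were followed by the NK/ILC1 gate with 527 CPM and the basophil gate with 495, which did not separate either, and then by the T gate with 226. The classical monocyte gate at 155 CPM, the nonclassical monocyte gate at 130 and the pDC gate at 117 were below the T gate, whereas for Ctsb they were above it. Ctsd made up 52.7% of the cathepsin UMI in the basophil gate, 46.4% in the neutrophil gate and 39.0% in the NK/ILC1 gate, against 13.7% in the Kupffer gate and 3.49% in the classical monocyte gate. The lowest Ctsd level was in the cDC1 gate, with 5 UMI in 876755, or 5.70 CPM (1.85 to 13.3). With Leiden clusters, the cDC1 cluster of 100 barcodes had 45.5 CPM (34.9 to 58.2).

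Ctsa (chr2:164832873-164841032, plus strand), a carboxypeptidase that also protects the lysosomal galactosidase and neuraminidase in a complex, was highest in the Kupffer and monocyte gates. It had 474 CPM in the Kupffer gate (457 to 492), 234 in the nonclassical monocyte gate and 222 in the classical monocyte gate. The Kupffer gate was 2.02-fold above the nonclassical gate (1.81 to 2.27), and the monocyte gates did not separate from each other (1.06, 0.924 to 1.20). The pDC gate had 131 CPM and the other 8 gates 88.4 or less, with 21.7 in the cDC1 gate. The lowest was 11.1 CPM in the basophil gate, where it rested on 2 UMI.

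**Figure D2:**
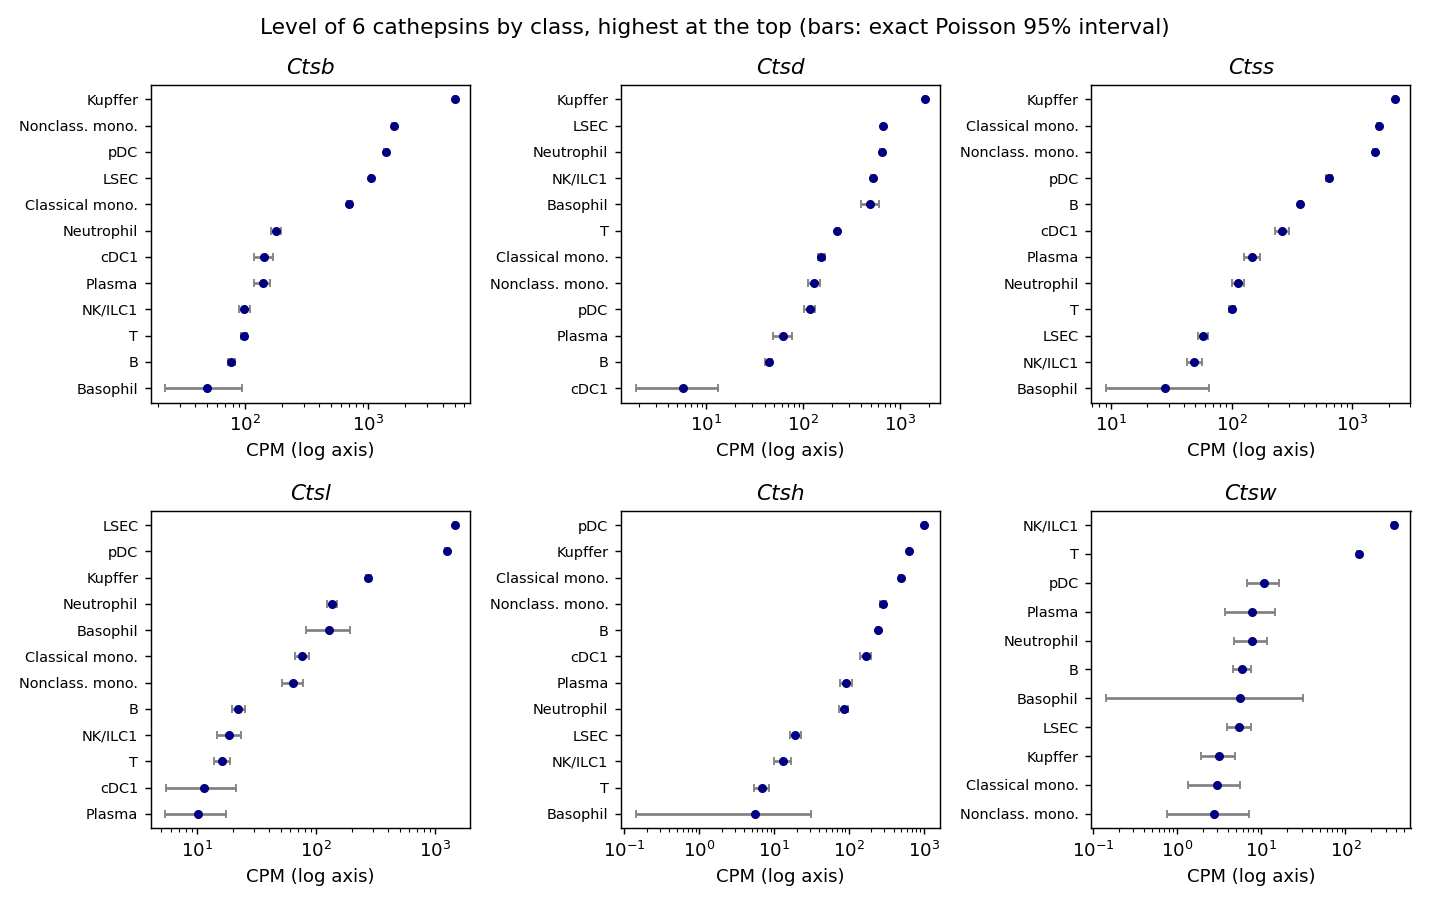
CPM (log axis) of 6 cathepsins by gate, highest at the top, with exact Poisson 95% intervals that cover counting error only; a gate with no UMI (cDC1 for Ctsw) has no point. Ctsb falls below 200 CPM after the Kupffer, nonclassical monocyte, pDC, LSEC and classical monocyte gates. Ctss falls from 1533 CPM in the nonclassical monocyte gate to 640 in the pDC gate. Ctsd stays above 200 CPM down to the T gate, and Ctsw falls to 10.7 CPM or less after the NK/ILC1 and T gates.

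The enzymes tied to antigen processing were found in the B and pDC gates as well as in the mononuclear phagocytes. Ctss (chr3:95526786-95556403, plus strand), the cysteine protease that cleaves the invariant chain in B cells and dendritic cells, had 2262 CPM in the Kupffer gate (2224 to 2300), 1654 in the classical monocyte gate and 1533 in the nonclassical monocyte gate. The Kupffer gate was 1.37-fold above the classical monocyte gate (1.32 to 1.41), a narrower lead than for Ctsb or Ctsc. The pDC gate had 640 CPM, the B gate 370, the cDC1 gate 263 and the plasma cell gate 147. Ctss was low in the LSEC gate at 58.0 CPM, so Kupffer exceeded LSEC 39.0-fold (35.4 to 43.1), or 95.1-fold with Leiden clusters (81.8 to 111). A Ctss UMI was found in 29.5% of B barcodes thinned to 1000 UMI, against 10.0% of T barcodes and 2.37% of LSEC barcodes; unthinned, the shares were 69.4, 35.5 and 10.9%.

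Ctsh (chr9:90054152-90076089, plus strand), an aminopeptidase of the same family, was highest in the pDC gate with 1026 CPM (983 to 1071). The Kupffer gate followed with 639, the classical monocyte gate with 493, the nonclassical monocyte gate with 285, the B gate with 245 and the cDC1 gate with 168. The pDC gate was 1.61-fold above the Kupffer gate (1.52 to 1.70). It had 19.2 CPM in the LSEC gate and 6.93 in the T gate. The B gate was thus next to the nonclassical monocyte gate in the order of Ctsh. The basophil gate had 1 UMI. With Leiden clusters, T cells had 2.5 CPM (1.71 to 3.52) and basophils, from 7 UMI, 31.3 (12.6 to 64.4).

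Ctsz (chr2:174427493-174439039, minus strand), a carboxypeptidase also called cathepsin X, had 597 CPM in the Kupffer gate (578 to 617) and 594 in the pDC gate (561 to 628), which did not separate (ratio 1.01, 0.943 to 1.07). With at most 5% mitochondrial UMI, the pDC gate was the higher of both (Kupffer over pDC 0.846, 0.734 to 0.978), and also with haemoglobin, mitochondrial, ribosomal protein and hepatocyte secretory genes left out of the total (0.934, 0.875 to 0.997). The classical monocyte gate had 527 CPM, the nonclassical monocyte gate 386 and the cDC1 gate 238. The plasma cell gate with 207 CPM and the B gate with 207 had a ratio of 1.0 (0.880 to 1.14). Ctsz was lowest in the NK/ILC1 gate with 36.2 CPM and the T gate with 34.9.

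Over the 12 gates, Ctsh and Ctsz had the most alike patterns of the 45 pairs of members, with a Pearson r of log2(CPM + 10) of 0.957. Next were Ctsh with Ctss at 0.900, Ctss with Ctsz at 0.896 and Ctsa with Ctsb at 0.879. Ctsw and Ctsz were the most unlike pair at -0.677. All points of these correlations come from 1 library and share its free RNA and depth differences, so they describe these gates and no more. Ranked among 9362 genes with at least 20 CPM in a gate, the 2 genes most like Ctsh were Ctsz and Unc93b1 (0.944), the chaperone of nucleic acid-sensing Toll-like receptors. Cln8 (0.947) and Ifnar2 (0.928) were most like Ctsb, Zeb2os (0.940) and Gngt2 (0.922) most like Ctsa, Filip1l (0.942) most like Ctss, and Ctsh and Trim25 (0.914) most like Ctsz. Cyp4v3 (0.906) and Ntpcr (0.895) were most like Ctsc, and Arrb2 (0.878) most like Ctsd.

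Ctsl (chr13:64359337-64370890, minus strand), a strong endopeptidase that trims the invariant chain in thymic epithelium of mice, did not follow the Kupffer pattern. It was highest in the LSEC gate with 1452 CPM (1424 to 1480) and next in the pDC gate with 1259 (1211 to 1308), a ratio of 1.15 (1.10 to 1.21). The Kupffer gate had 272 CPM (259 to 285), so the LSEC gate exceeded the Kupffer gate, whereas 7 of the other members were higher in the Kupffer gate. Of 9091 genes with at least 10 CPM in either gate, 27.4% were higher in the Kupffer gate and 53.4% lower by the same rule, an interval of the ratio that excludes 1. The Kupffer over LSEC ratio of Ctsl was 0.187 (0.178 to 0.197), beside 4.80 for Ctsb, 5.14 for Ctsz and 5.52 for Ctsa. The neutrophil gate had 135 CPM and the basophil gate 128, the classical monocyte gate 75.8, the nonclassical monocyte gate 63.6, and every other gate at most 22.1. Ctsl supplied 41.6% of all cathepsin UMI in the LSEC gate, 23.4% in the pDC gate and 2.03% in the Kupffer gate. At 1000 UMI, 74.2% of LSEC barcodes and 68.4% of pDC barcodes held a Ctsl UMI, against 23.7% of Kupffer and 2.05% of B barcodes; unthinned, the shares were 97.6, 99.2, 78.7 and 6.94%. Tmem59 (r 0.928) and Rell1 (0.922) had the patterns most like Ctsl.

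**Figure D3:**
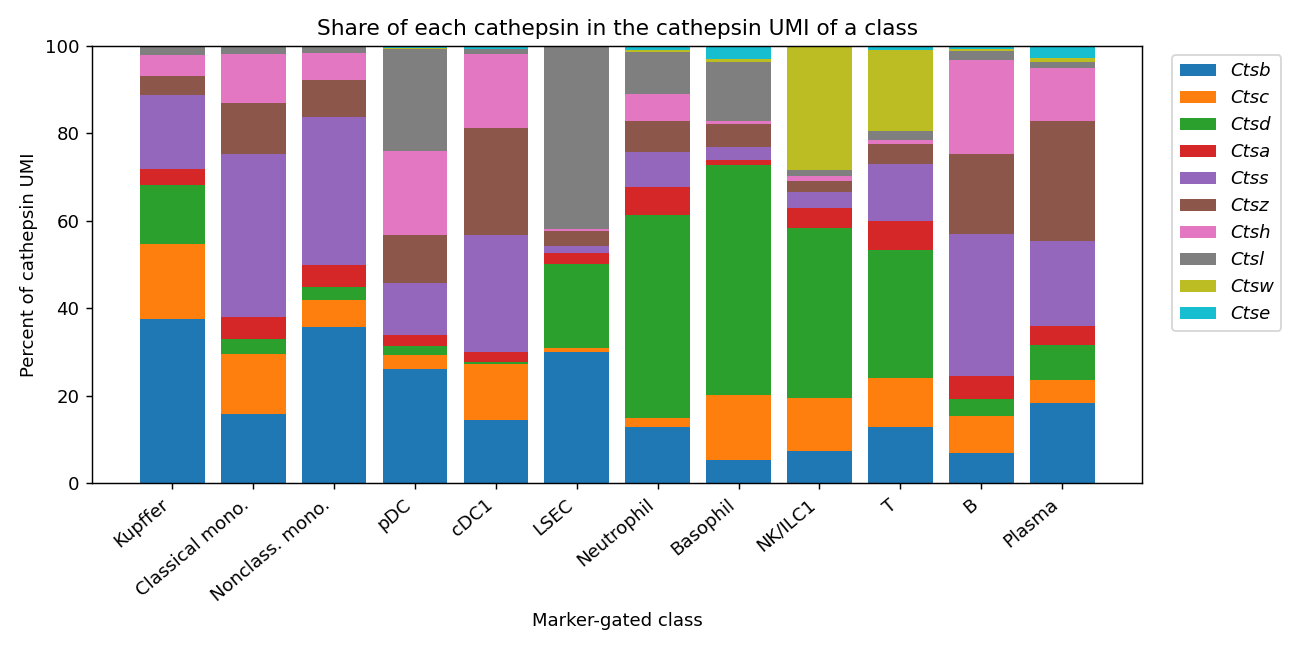
Percent of all UMI of the 10 cathepsins that each gene contributed, by gate; each bar sums to 100 percent. Ctsl takes 41.6% in the LSEC bar and 2.03% in the Kupffer bar, Ctsd 46.4% in the neutrophil bar, and Ctsw 28.1% in the NK/ILC1 bar. Shares depend on how well each transcript is captured, so a gene is read across bars.

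Endothelial markers were detected in the Kupffer gate. Kupffer barcodes held a mean of 1.99 of the 8 LSEC markers and 3.04 of the 8 nonclassical monocyte markers, while LSEC barcodes held a mean of 0.559 of the 8 Kupffer markers. In Kupffer barcodes with 0, 1, 2, and 3 or more LSEC markers, numbering 50, 143, 153 and 157, Ctsl had 311, 263, 282 and 266 CPM. Ctsb had 5115, 5176, 5075 and 4945 CPM in the same barcodes, and Ctsc 1506, 2190, 2334 and 2311. The barcodes with 0 LSEC markers had a median of 927 UMI and gave 25 Ctsl UMI in all, while those with 3 or more had a median of 16796 UMI, so this division, made after the data were seen, also divides by depth. The part of endothelial RNA in these levels was not tested. A further 191 barcodes carried enough markers of both lineages to be left out of the gates, at a median of 24347 UMI, and the doublet caller Scrublet called 2 of them. In these, Ctsl had 740 CPM, 2.72-fold above the Kupffer gate (2.56 to 2.88) and 0.509 of the LSEC level (0.490 to 0.529). Ctsb had 3628 CPM and Ctsc 1342 there, both lower than in the Kupffer gate and higher than in the LSEC gate.

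Ctsw (chr19:5465043-5468507, minus strand), a protease of cytotoxic lymphocytes kept in the endoplasmic reticulum, was centred on the NK/ILC1 and T gates, while the B gate had 5.91 CPM. It had 380 CPM in the NK/ILC1 gate (361 to 399) and 143 in the T gate (136 to 150), a ratio of 2.65 (2.47 to 2.84). In the other gates it lay between 2.76 CPM in the nonclassical monocyte gate and 10.7 in the pDC gate, and the cDC1 gate had none in 876755 UMI, which allows up to 3.42 CPM. The T gate was 13.4-fold above the pDC gate (8.79 to 21.4). With Leiden clusters, NK/ILC1 cells had 385 CPM and T cells 157.5. Basophils then had 26.8 CPM from 6 UMI, neutrophils 16.9 and B cells 14.8. A Ctsw UMI was found in 76.6% of NK/ILC1 barcodes at a median of 4198.5 UMI, against 2.78% of Kupffer barcodes at a median of 13127 UMI and 1.72% of B barcodes at 3261. No expression is read from the Kupffer and B shares, and what gave these UMI was not tested. Thinned to 1000 UMI, the shares were 33.4, 0.222 and 0.397%. Tcrg-C4 (0.990) and Fasl (0.987), the death ligand of cytotoxic cells, had the patterns most like Ctsw.

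Ctse (chr1:131638306-131675505, plus strand), an aspartic protease of endosomes, was scarce in these cells, with 377 UMI in the whole matrix. The basophil gate had 27.8 CPM from 5 UMI (9.04 to 64.9), the pDC gate 23.4 (17.3 to 31.0) and the plasma cell gate 20.3 (13.3 to 29.7), and neither neighbouring ratio excluded 1. The Kupffer gate had no Ctse UMI in 6034501, which allows up to 0.497 CPM, and the LSEC gate had 2 UMI. The Kupffer gate, highest for 6 other members though not separated from the pDC gate for Ctsz, thus held no Ctse UMI. The patterns most like it were those of St14 (0.853) and Sub1 (0.850).

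Monocyte subsets had like sums of cathepsin CPM, 4444 in the classical and 4547 in the nonclassical gate, but differed in single members. The classical over nonclassical ratio was 2.11 for Ctsc (1.90 to 2.35), 1.73 for Ctsh (1.55 to 1.94), 1.36 for Ctsz (1.24 to 1.5), 1.20 for Ctsd (1.01 to 1.42) and 1.08 for Ctss (1.03 to 1.14). Ctsb went the other way, with 703 CPM in the classical and 1619 in the nonclassical gate, a ratio of 0.434 (0.409 to 0.461). The intervals of the other 4 members included 1. How many of all genes separate between these gates by the same rule was not computed.

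Of 9 cathepsins with at least 10 CPM in either class, 6 were higher in effector than in naive CD8 T cells and 0 were lower by the interval of the ratio. By the same rule 40.9% of all 7707 genes were higher and 11.4% lower. Median depth was 4447 UMI in effector and 6484 in naive barcodes. Effector CD8 T barcodes (489, by markers such as Ccl5, Gzmk, Cxcr6 and Gzmb) summed to 1085 CPM and naive ones (378, by markers such as Lef1, Ccr7 and Igfbp4) to 586. The effector over naive ratio was 3.08 for Ctsd, with 389 CPM in effector and 126 in naive barcodes (2.72 to 3.50), and 2.64 for Ctsa (2.02 to 3.50). It was 1.95 for Ctsb (1.60 to 2.40), 1.71 for Ctsc (1.43 to 2.04), 1.40 for Ctsw (1.22 to 1.59) and 6.06 for Ctsh, which had 13.8 CPM in effector and 2.28 in naive barcodes (2.55 to 17.5). For Ctse, Ctsl, Ctss and Ctsz the interval included 1. The Ctsh ratio rested on 39 UMI in effector and 6 in naive barcodes. The whole T gate held 77 Ctsh UMI, while the Leiden clusters of T cells, with 2257 barcodes, held 32. The Ctsh value therefore depends on how T cells were defined, and which barcodes gave these UMI was not tested. Ctsw had 174 CPM in CD8 and 93.7 in CD4 T barcodes (ratio 1.85, 1.60 to 2.15), whereas Ctsb was lower in CD8 (0.731, 0.630 to 0.850).

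Between innate lymphocytes, Ctsw had 489 CPM in ILC1 barcodes (235) and 333 in NK barcodes (566), a ratio of 1.47 (1.32 to 1.64). Ctsd was lower in ILC1, with 457 CPM in ILC1 and 566 in NK (0.807, 0.729 to 0.892), and Ctss was lower too (0.616, 0.422 to 0.880). Ctsz and Ctsb were higher in ILC1, at ratios of 1.49 (1.04 to 2.13) and 1.35 (1.08 to 1.69). How many of all genes separate between ILC1 and NK barcodes was not computed. Barcodes with markers of both T cells and NK/ILC1, 439 in number and outside the gates, had 282 CPM of Ctsw, between both gates. Among granzymes, which cathepsin C activates, Gzma was highest in the NK/ILC1 gate and Gzmb and Gzmc in the basophil gate. Gzma had 9963 CPM in the NK/ILC1 gate and 1130 in the T gate, while Gzmb had 2783 CPM in the basophil gate and 1625 in the NK/ILC1 gate, and Gzmc 417.5 CPM in the basophil gate and 87.7 in the NK/ILC1 gate. Ctsc in the basophil gate was 139 CPM, not separated from the 163 CPM of the NK/ILC1 gate (NK/ILC1 over basophil 1.17, 0.785 to 1.82). Its highest level, 2287 CPM, was in the Kupffer gate, where Gzma had 44.4 CPM and Gzmb 17.1.

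Of 9 cathepsins with at least 10 CPM in either class, 6 were lower and 1 was higher in immature than in mature neutrophils. By the same rule 26.4% of all 5932 genes were lower and 13.8% higher. Median depth was 6205 UMI in immature and 2507 in mature barcodes. Immature barcodes (62, with at least 2 of Ngp, Camp and Ltf) had 12.7 CPM of Ctss and mature ones (854) 129, a ratio of 0.0983 (0.0317 to 0.232). The ratio was 0.126 for Ctsa (0.0405 to 0.298), 0.225 for Ctsz (0.107 to 0.420), 0.358 for Ctsl (0.219 to 0.556), 0.541 for Ctsd (0.454 to 0.641) and 0.570 for Ctsb (0.407 to 0.780). Ctsh alone was higher in immature neutrophils, with 122 CPM in immature and 79.3 in mature barcodes (1.54, 1.10 to 2.13). Ctsa and Ctss in immature barcodes rested on 5 UMI each, and Ctsc, Ctse and Ctsw did not separate.

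**Figure D4:**
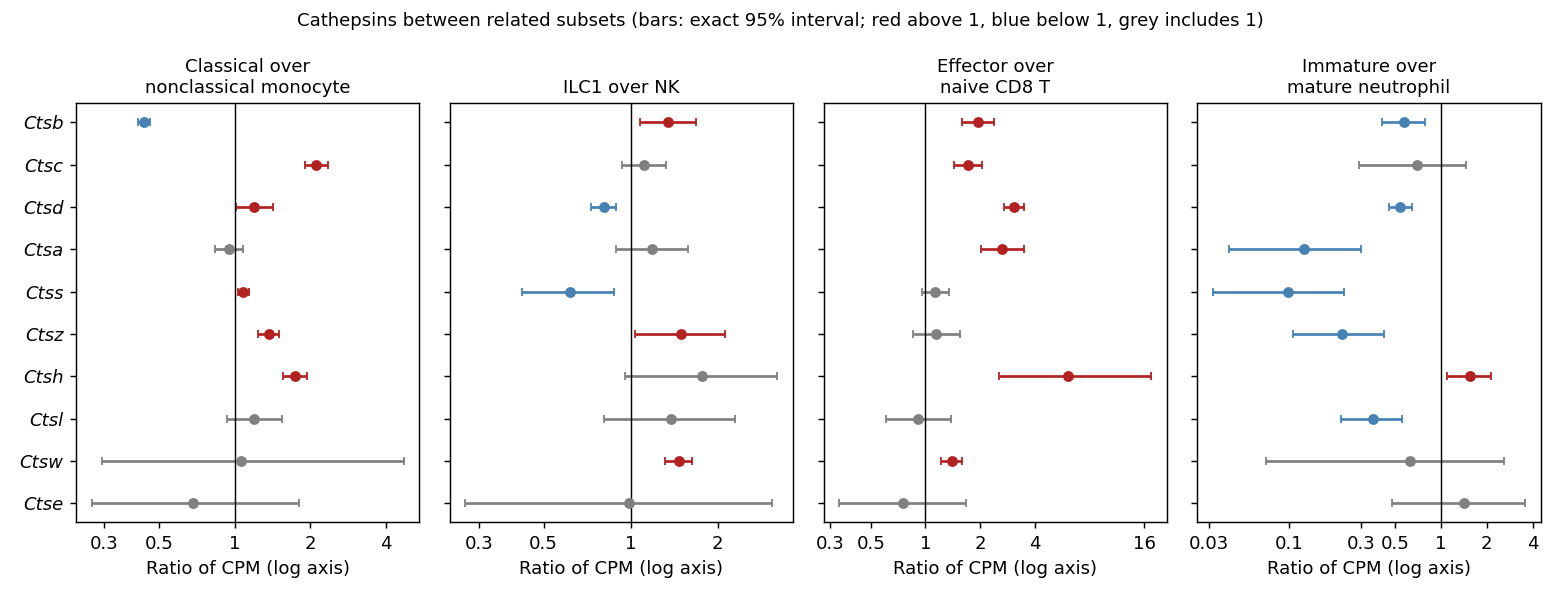
Ratio of CPM (log axis) of each cathepsin between related subsets, with exact 95% intervals; red points have intervals above 1, blue below 1, grey include 1. Effector over naive CD8 T cells shows 6 red points and no blue one, and immature over mature neutrophils shows 6 blue points and 1 red, beside the shares of all genes given for these pairs.

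In the B lineage, 5 members were lower in plasma cells than in B cells, Ctsh and Ctss among them, and 3 were higher. The share of all genes was not computed for this pair. Against all other gated barcodes, the median log2 fold of all genes tested was -0.96 in the plasma cell gate and -0.15 in the B gate. In the plasma cell gate 48.5% of all genes were at least 2-fold lower, in the B gate 24.4%. The plasma cell over B ratio was 0.376 for Ctsh (0.310 to 0.452), 0.399 for Ctss (0.343 to 0.462), 0.400 for Ctsc (0.295 to 0.532), 0.459 for Ctsl (0.241 to 0.799) and 0.554 for Ctsa (0.396 to 0.758). It was 1.79 for Ctsb (1.52 to 2.1), 1.40 for Ctsd (1.09 to 1.77) and 2.46 for Ctse (1.53 to 3.84). Cd74, the invariant chain, had 1765 CPM in the plasma cell gate and 10538 in the B gate. Among dendritic cells, all 10 members were higher in the pDC than in the cDC1 gate by the interval of the ratio, where 32.7% of all 8216 genes were higher and 20.6% lower. Ctsl had 1259 CPM in the pDC and 11.4 in the cDC1 gate (ratio 110.4, 59.9 to 230). With Leiden clusters the Ctsl ratio was 27.5 (21.3 to 36.2), and Ctsc did not separate (1.13, 0.954 to 1.35). The cDC1 gate was at the same time the highest of all for Cd74 (13596 CPM), H2-Ab1 (8140 CPM) and H2-Aa (5793 CPM). In all, 16 pairs of classes and 160 ratios were computed.

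The distribution of cathepsin inhibitors differed by gene. Cst3, cystatin C, the secreted inhibitor of cysteine cathepsins, had 18539 CPM in the cDC1 gate, where cathepsins summed to 981. Outside that gate it was highest in gates with high cathepsin sums. It had 3869 CPM in the nonclassical monocyte, 2071 in the classical monocyte, 1513 in the Kupffer and 951 in the pDC gate. The neutrophil gate had 886 CPM and the LSEC gate 417. Its lowest levels were 271 CPM in the B gate, 153 in the NK/ILC1 gate and 117 in the T gate. The stefins, inhibitors in the cytosol, were led by Stfa2l1 with 803 CPM in the neutrophil gate and 5.57 in the basophil gate. Cstb had 255 CPM in the neutrophil gate, 253 in the Kupffer gate and 231 in the classical monocyte gate. Of the 8 inhibitor genes, 6 were at least 2-fold higher in the neutrophil gate, a gate in which no cathepsin was, and 1 was lower. Of all genes tested there, 10.5% were higher and 58.8% lower. The inhibitor genes Stfa1, Stfa2, Stfa3 and BC100530 were each found in 34 or fewer of the 916 neutrophil barcodes. Several stefins are near-identical copies, so counts between them are uncertain.

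Among partners in the lysosome, Lgmn, the asparaginyl endopeptidase that matures several cathepsins, had 1613 CPM in the Kupffer gate and 686 in the LSEC gate. Grn, which encodes progranulin, had 1579 CPM in the Kupffer gate and 1017 in the pDC gate. Psap, the saposin precursor, had 3018 CPM in the cDC1 gate and 2448 in the classical monocyte gate. Of the 9 genes for regulators and sorting receptors, 3 were at least 2-fold higher and 1 was lower in the Kupffer gate. Of all genes tested there, 13.6% were higher and 22.5% lower. The median log2 fold of the 9 genes was 0.03, beside -0.24 for all genes tested. Tfe3 had 104 CPM and Tfec 102 in the Kupffer gate, with 57.2 and 57.7 in the LSEC gate. M6pr, a mannose 6-phosphate receptor, was close to even at the top, with 277 CPM in the cDC1 and 276 in the pDC gate.

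Of the 13 further genes named as cathepsins, 5 had any UMI in a gate. Ctsg, the granule serine protease, had 189 CPM in the basophil gate and 64.8 in the classical monocyte gate. These rested on 34 UMI in 3 of 37 basophil barcodes and 199 UMI in 12 of 334 classical monocyte barcodes. Ctso had 106 CPM in the LSEC gate and 72.1 in the pDC gate, and Ctsf 57.2 in the Kupffer gate and 15.9 in the LSEC gate. The other two, Ctsk and Ctsj, reached at most 3.79 CPM.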

How the data were processed

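The deposited values are raw UMI counts, whole numbers for each gene in each barcode. The submitters' processing notes name mm10, STAR, Seurat 2.3.4 and Cell Ranger 2.1.1; per the file headers, software version 3.0.0 wrote the matrix. How cells were called was not stated, and free RNA was not estimated. The matrix held 67037274 UMI over 11192 barcodes, from 502 to 93990 UMI per barcode with a median of 4212.5. Both samples' files were identical, so 1 matrix was analysed as 1 sample and genotypes were not compared.

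Barcodes were kept from 500 UMI and 200 genes upward if mitochondrial UMI made up no more than 10%. In all, 56 had under 200 genes and 778 were over the mitochondrial limit. A barcode took the lineage with the most detected markers if at least 3 were detected and at least 2 more than of any other lineage; 1071 barcodes matched several lineages and 132 too few markers. A subset needed at least 1 own marker, or 2 for immature neutrophils, and more than of its counterpart, with none of the counterpart for CD4 and CD8. Lineages with under 30 barcodes were not taken as gates, but their barcodes were counted among all other gated barcodes. Doublets were not removed; Scrublet called 351 barcodes (3.39%), 192 of them among the 1071.

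UMI were summed per gate and expressed as CPM. The fold of a gate over all other gated barcodes used log2(CPM + 1) and genes with at least 10 CPM in either; called means past 2-fold. Thinning to 1000 UMI left 10213 barcodes. Exact 95% intervals are Poisson for CPM, conditional for ratios and Clopper-Pearson for shares; a count of 0 is given the limit of 3 counts of the total. Named genes outside the members are the 2 most alike per member and the 3 of highest CPM per list; a few of these genes and markers are not reported here, and others were named once their values were known. The members and lists were chosen with earlier results of these data known. Python 3.11.15, numpy 2.4.6, scipy 1.17.1, pandas 2.3.3, scanpy 1.11.5 and igraph 0.11.9 were used, and the fold and interval steps were tested on simulated data. In all, 10 alternative settings were tried. Gene positions come from GENCODE M21 on GRCm38 and promoter sequences from RefSeq on GRCm38.p6.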

Additional observations from a re-analysis of the deposited data

How the results depend on the processing

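No separated ratio between the highest and next gate reversed under the alternatives run for it. Counts were labelled only as same or moved, so a reversal could not arise for them. Ctsz, not separated between Kupffer and pDC as reported (1.01), was higher in pDC with at most 5% mitochondrial UMI (0.846) and with the reduced total described next (0.934). The count of members at least 2-fold higher in the Kupffer gate was 7 under every alternative run for it, and that in the NK/ILC1 gate was 1. In the classical monocyte gate the count was 5 with at most 5% mitochondrial UMI and 5 with barcodes thinned to 1000 UMI, in place of 3, and in the LSEC gate it was 3 when thinned, in place of 1; the cause was not tested. The summed Kupffer level, 13401 CPM, was 13294 with at most 5% mitochondrial UMI, 16072 with haemoglobin, mitochondrial, ribosomal protein and hepatocyte secretory genes left out of the total, which shrinks that total, and 11638 with the barcodes marked as both Kupffer and LSEC counted as Kupffer, an alternative chosen after seeing the data. Members highest in the Kupffer gate numbered from 5 to 6. The Kupffer over pDC ratio of Ctsz was at most 1.04, the basophil over pDC ratio of Ctse ran from 0.865 to 1.64 and the LSEC over pDC ratio of Ctsl from 1.05 to 1.26. Of the ratios between the highest and next gate under alternatives, 47 stayed within the interval given and 23 did not, all within a factor of 1.5. No paired analysis was possible because both samples hold the same matrix and no test was made. Classes of under 100 barcodes, Ctse and the immature neutrophils rest on few UMI, and with 1 sample the variation between animals is unknown.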
